A study of Homo sapiens with 12 samples.

Results

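The 9 genes described here encode the inducible subunits of the proteasome and their constitutive counterparts, out of 43769 genes in the count table. They were taken by name and not by any measured value. PSMB8, PSMB9 and PSMB10 were set against PSMB5, PSMB6 and PSMB7, the catalytic subunits whose places they take, and PSME1 and PSME2 were set against PSME3. All 9 passed the filter on low counts and were among the 15828 genes tested.

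The proteasome is the barrel-shaped protease that degrades ubiquitin-tagged proteins, and the inner beta rings of its 20S core carry the active sites. In cells exposed to interferon gamma (IFNγ), newly built cores take up PSMB8 (LMP7) in place of PSMB5, PSMB9 (LMP2) in place of PSMB6 and PSMB10 (MECL-1) in place of PSMB7, which gives the immunoproteasome. PSME1 and PSME2 (PA28 alpha and beta) form a cap that opens the core, and PSME3 (PA28 gamma) forms a related cap found in the nucleus. The immunoproteasome is known for making peptides that fit MHC class I molecules, and cells of the nervous system carry little of it without interferon.

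RNA was sequenced from SK-N-DZ, an established MYCN-amplified neuroblastoma cell line, in a clonal derivative selected to carry a doxycycline-switched hairpin against ARID1A, a subunit of the SWI/SNF chromatin remodeller. The study asked what loss of ARID1A does to the response to IFNγ. All 12 libraries carry the hairpin vector, and 4 groups of 3 were made from them. Control (C) had neither agent, Dox (D) had doxycycline for 4 days, IFN (I) had IFNγ for 24 h, and Dox IFN (DI) had both. The labels give the genotype of C and I as WT and that of D and DI as shARID1A, so doxycycline and the induced hairpin cannot be told apart. One clone stands for the line, no library held doxycycline without the vector, and the labels do not say whether replicates were separate cultures, so the tests measure only the spread between these libraries. In RNA from whole cultures, fewer responding cells and less RNA per cell cannot be told apart either.

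Totals ran from 16469832 to 21790869 counts per library, at which 3 counts, taken as the detection floor, equal 0.135 to 0.187 CPM (counts divided by the TMM-scaled library size). Floors and counting intervals cover counting error only. ARID1A, the target of the hairpin, stood at 197, 186 and 165 CPM in C and at 197, 159 and 158 CPM in D, and these groups overlapped (log2 fold change -0.09, SE 0.11, adjusted p = 0.788). It stood at 192, 203 and 194 CPM in I and at 151, 133 and 148 CPM in DI, with no overlap (log2 fold change -0.44, SE 0.11, adjusted p = 0.115, and 0.0111 with the replicate number as a block). Among libraries without IFNγ the mRNA of the target thus did not separate those labelled Dox from those labelled Control, and every doxycycline comparison below is one of libraries by their labels. The 7 neuroblastoma markers PHOX2A, HAND2, ISL1, GATA3, MYCN, CHGA and DBH summed to between 3764 and 5117 CPM in every library, with group ranges that overlapped. None of the 7 was called in any comparison, but with the replicate block HAND2 was called lower in D against C and in DI against I (log2 fold changes -0.63 and -0.51, adjusted p = 0.00603 and 0.0151) and DBH lower in D against C (-0.93, adjusted p = 0.0433). With IFNγ the block called MYCN lower and PHOX2A higher in I against C (-0.39 and 0.40, adjusted p = 0.00902 and 0.0115) and in DI against D (-0.46 and 0.36, adjusted p = 0.00419 and 0.0274), and DESeq2 called PHOX2A in both. The 6 blood cell markers, listed because blood cells carry the inducible subunits without interferon, had a summed level between 10.2 and 12.9 CPM in C and between 3.996 and 8.02 CPM in D. With IFNγ the sum lay between 45.8 and 60.9 CPM in I, and in DI between 17.7 and 42.4 CPM. It was nearly all CD74, itself an interferon-induced gene (11.2 ± 1.41 CPM in C and 53.9 ± 7.62 in I, SD, n = 3), while CD3E was at 0 in all 12 libraries and PTPRC did not exceed 0.721 CPM. The 6 fibroblast and Schwann cell markers summed to 12.2 to 65.0 CPM with overlapping groups, mostly PDGFRA. Among them COL1A2, a fibroblast collagen gene, was at 3.55 ± 2.13 CPM in C and 12.8 ± 9.84 in I (SD, n = 3, log2 fold change 1.84, SE 0.52, adjusted p = 0.148), with overlap, and was called with the block (0.0302) and by DESeq2 (0.0102). It was at 4.64 ± 0.703 CPM in D and 10.5 ± 0.250 in DI, without overlap, and was called only with the block within each doxycycline arm (adjusted p = 0.000121). The part of these markers in the results below was not tested.

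Positions are given in GRCh38 with GENCODE 29. By these gene bodies PSMB8 (chr6:32840717-32844703, minus strand) and PSMB9 (chr6:32844136-32859585, plus strand) lie head to head in the MHC class II region, where the body of PSMB9 also spans TAP1 on the other strand. The RefSeq start of PSMB9 used below lies further into that body (stretch at chr6:32854122-32854221). Seen from PSMB8 it is beyond TAP1, so TAP1 lies between PSMB8 and that start. PSME1 (chr14:24136158-24138967, plus strand) and PSME2 (chr14:24143362-24147570, minus strand) are neighbours, and PSMB5 (chr14:23016543-23035230, minus strand) is on the same chromosome. PSMB10 is at chr16:67934502-67937087 (minus strand), PSMB6 at chr17:4796144-4798503 (plus strand), PSME3 at chr17:42824385-42843758 (plus strand) and PSMB7 at chr9:124353466-124415444 (minus strand).

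Promoter windows of 7 of the 9 members were found in the RefSeq table (GRCh38.p14), in 9 windows of 250 bases before to 50 bases from the start on, with both PSMB8 and PSMB5 having a pair of starts. Each was searched on both strands for the core of the interferon-stimulated response element, ISRE, the site of IRF factors (GAAA, any 2 bases, GAAA), for the gamma-activated site, GAS (TTCNNNGAA), and for the antioxidant response element, ARE (TGACNNNGC). The first was found in windows of PSMB8, PSMB10, PSME1 and PSME2, in each case as the same 10 letters, GAAAGCGAAA, on one strand or the other. It lay at -4 to 6 in PSMB8 (second start), at -21 to -12 in PSMB10, at 6 to 15 in PSME1 and at -28 to -19 in PSME2, counted from the first transcribed base as 1. An ISRE core of any letters is in 3.57% of all 35116 promoters of the table, and these 10 letters are in 35 of them (0.0997%), a count made after the match was seen. No ISRE core was in the windows of PSMB9, PSMB5 or PSME3. GAS cores were in the windows of PSMB8 at -65, PSMB5 at -158 and -15, and PSME3 at -230 (7.66% of all promoters), and ARE cores were in those of PSMB9, PSME1 and PSME2 (13.3%). The stretches from 70 bases before the start to 30 bases from it on are printed for the 5 inducible members, because the position and strand of the shared letters can be read from them, with ISRE and GAS matches in capitals and all written along the strand of the gene. They lie at chr6:32844018-32844117 (PSMB8), chr6:32854122-32854221 (PSMB9), chr16:67936821-67936920 (PSMB10), chr14:24136124-24136223 (PSME1) and chr14:24146581-24146680 (PSME2).
PSMB8: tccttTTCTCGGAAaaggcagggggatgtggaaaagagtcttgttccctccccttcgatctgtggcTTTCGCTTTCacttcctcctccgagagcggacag
PSMB9: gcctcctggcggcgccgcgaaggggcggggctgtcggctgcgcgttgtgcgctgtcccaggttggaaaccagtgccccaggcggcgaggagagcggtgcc
PSMB10: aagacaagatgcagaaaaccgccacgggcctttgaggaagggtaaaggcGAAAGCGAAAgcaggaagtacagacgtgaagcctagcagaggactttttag
PSME1: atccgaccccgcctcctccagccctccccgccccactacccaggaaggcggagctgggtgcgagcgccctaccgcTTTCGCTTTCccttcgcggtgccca
PSME2: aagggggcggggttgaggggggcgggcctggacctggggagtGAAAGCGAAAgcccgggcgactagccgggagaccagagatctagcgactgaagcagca
In PSMB8 and PSME1 the letters read on the strand opposite to the gene, and in PSMB10 and PSME2 on the strand of the gene.

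To ask which subunits IFNγ changed, I was compared with C and DI with D, using edgeR's quasi-likelihood test with Benjamini-Hochberg adjustment over all genes tested. All 5 inducible members rose in I against C, where 2.1% of all genes tested were called higher, and the same 5 rose in DI against D, where 1.67% were. None of the 4 counterparts was called in either comparison. Their log2 fold changes ran from -0.20 to 0.13, none had an unadjusted p under 0.05, and neither the fit with the replicate block nor DESeq2 called any of them. The 2 comparisons share no libraries, but they are not independent. They share one estimate of the spread, and same-numbered libraries ran alike across the doxycycline labels (r from 0.338 to 0.613).

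**Figure D1:**
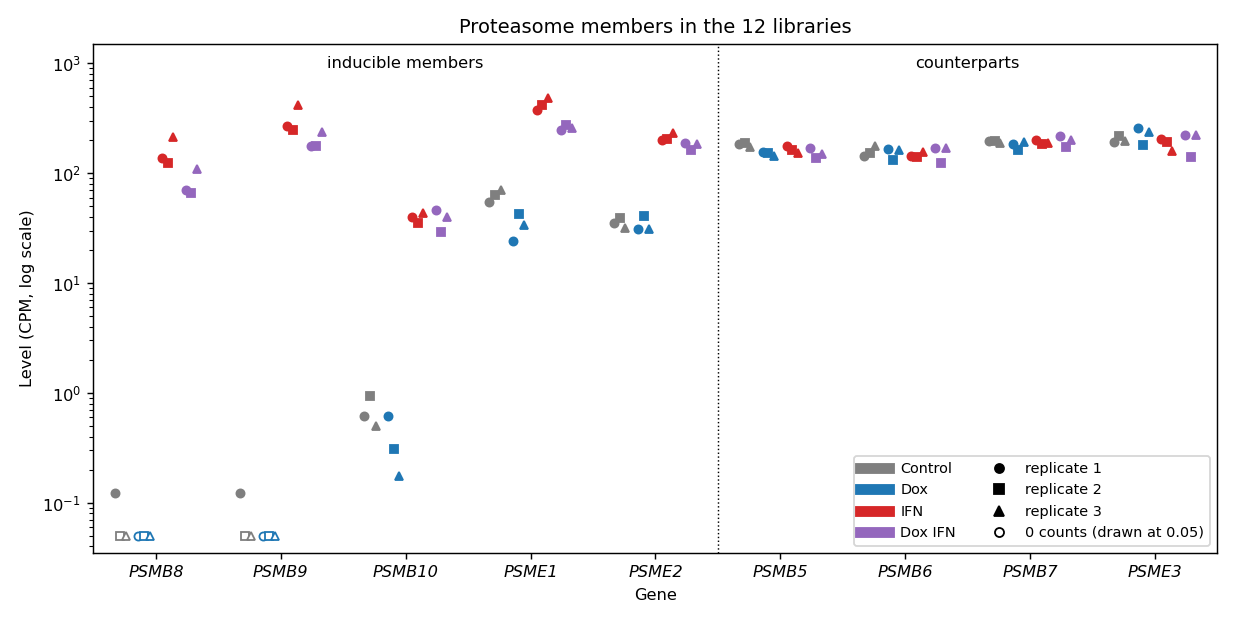
Level of each member in each of the 12 libraries, in CPM on a log axis, coloured by group with 1 marker shape per replicate number; open symbols at the bottom are libraries with 0 counts, drawn at 0.05. The 5 inducible members to the left of the dotted line stand higher in all IFN and Dox IFN libraries than in all libraries without IFNγ, while the 4 counterparts to the right stay between 125 and 258 CPM in every group.

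PSMB8 and PSMB9 went from next to nothing to levels of the same order as those of the counterparts in CPM. In DI every PSMB8 value was below those of PSMB5 (137 to 171 CPM). Every PSMB9 value was above those of PSMB6 in I (139 to 155 CPM) and in DI (125 to 168 CPM). CPM are not divided by gene length, and which of these 2 genes is higher per kilobase depends on the length used. The mean share of PSMB9 in its pair with PSMB6 in DI was 37.7% with the union of annotated exons as length. With the principal transcript it was 58.2%. PSMB8, the chymotrypsin-like subunit of the immunoproteasome, had 2, 0 and 0 counts in C and 0 in each D library, against 2791, 2292 and 4096 counts in I and 1368, 1287 and 2446 in DI. In CPM this was 138, 125 and 215 in I and 70.2, 66.0 and 110.2 in DI, with all libraries of C and D at or under the floor. From the 2 counts in C, the level in I was 4177 times that in C (95% counting interval 1156 to 34497). Set against the floor in place of those counts, the level in I was 852 times the floor in C. The level in DI was 473 times the floor in D, where every library was under it. The edgeR test of the groups, not of the floor, gave adjusted p = 3.85e-06 for I against C and 6.56e-06 for DI against D.

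PSMB9, which takes the place of the caspase-like subunit, ran with it. It had 2, 0 and 0 counts in C and none in D, against 5415, 4509 and 7887 counts in I and 3421, 3468 and 5233 in DI, or 268, 246 and 413 CPM in I and 176, 178 and 236 CPM in DI. The ratio of I to C, again on 2 counts, was 8105 (95% counting interval 2243 to 66934). Against the floor, I was 1653 times that of C and DI 1130 times that of D, where every library was under it. The edgeR test of the groups gave adjusted p = 1.09e-06 for I against C and 1.50e-06 for DI against D. The 2 counts of each gene in C came from replicate 1, which also held 10 counts of TAP1, the peptide transporter next to PSMB9, and 3 of NLRC5, while the other C libraries held 0 of these genes.

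PSMB10, the trypsin-like subunit, was the only inducible catalytic subunit above the floor without IFNγ, in 5 of 6 libraries. It was at 0.615, 0.944 and 0.499 CPM in C and at 0.620, 0.310 and 0.174 CPM in D, the last on 3 counts. With IFNγ it stood at 39.9, 35.1 and 43.4 CPM in I and at 45.8, 28.97 and 40.3 CPM in DI. The rise was 56.2-fold in I against C (log2 fold change 5.81, SE 0.35, adjusted p = 2.17e-06) and 99.9-fold in DI against D (6.64, SE 0.37, adjusted p = 1.58e-06). The D values behind the second fold rest on 13, 6 and 3 counts.

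The cap subunits were present before IFNγ and rose less. PSME1 was at 54.8, 63.8 and 70.1 CPM in C and at 375, 413 and 485 CPM in I, a 6.75-fold rise (log2 fold change 2.75, SE 0.19, adjusted p = 7.12e-06). With doxycycline it was at 24.3, 42.9 and 33.8 CPM in D and at 247, 273 and 258 CPM in DI, a 7.70-fold rise (2.94, SE 0.20, adjusted p = 5.27e-06). Its partner PSME2 went from 35.0, 38.9 and 32.0 CPM in C to 199.997, 206 and 231 CPM in I (6.01-fold, log2 fold change 2.59, SE 0.13, adjusted p = 7.68e-07). In D it was at 31.3, 40.4 and 30.9 CPM, and in DI at 190.1, 163 and 183 CPM (5.22-fold, 2.38, SE 0.13, adjusted p = 1.50e-06). For all 5 inducible members the lowest library with IFNγ was above the highest one without it, and all same-numbered pairs moved up. Of all genes tested, 8.84% were higher without overlap in I against C and 5.77% in DI against D. These shares are for each comparison alone, a looser measure, and the share of genes higher in all libraries with IFNγ was not counted.

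The counterparts gave no call. PSMB5, the constitutive chymotrypsin-like subunit, stood at 182 ± 7.67 CPM in C and 164 ± 12.3 in I (SD, n = 3), with a log2 fold change of -0.15 (SE 0.10, adjusted p = 0.931). PSMB6, the caspase-like one, had 157 ± 16.8 CPM in C and 146 ± 8.15 in I (-0.11, SE 0.14), and PSMB7, the trypsin-like one, 194 ± 3.90 and 192 ± 9.10 (-0.02, SE 0.10). PSME3 had 202 ± 15.3 CPM in C and 185 ± 23.0 in I (-0.13, SE 0.19), and 225 ± 40.7 in D and 196 ± 47.5 in DI (-0.20, SE 0.19). The groups of each counterpart overlapped in both comparisons.

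**Figure D2:**
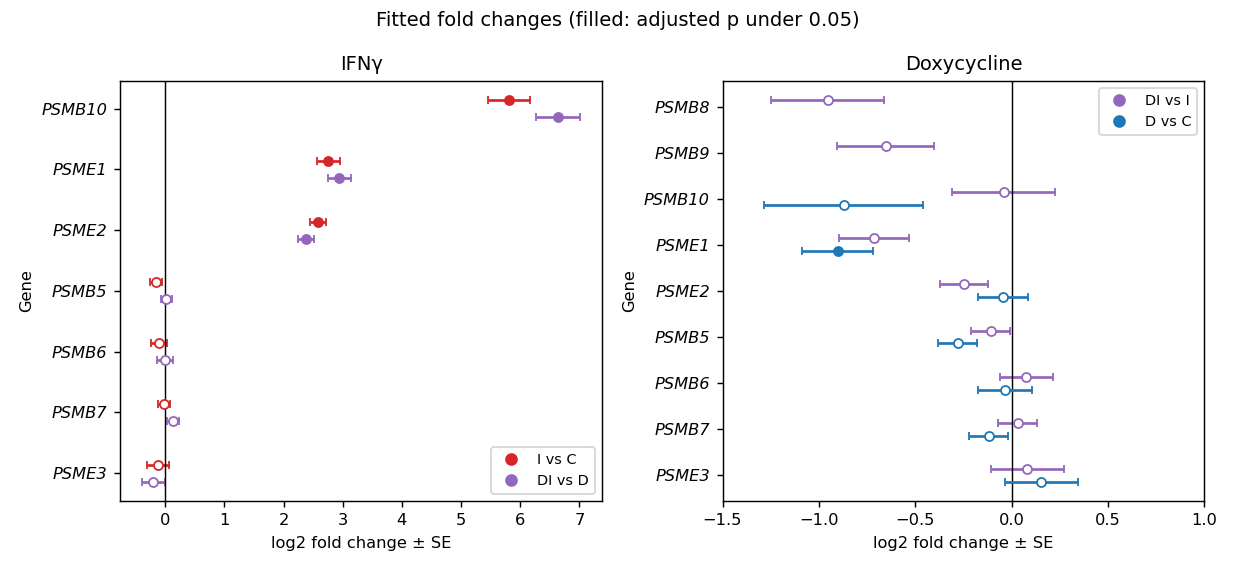
Log2 fold changes ± SE from the edgeR fit, for IFNγ on the left (I vs C in red, DI vs D in purple) and for doxycycline on the right (DI vs I in purple, D vs C in blue), with filled symbols at an adjusted p under 0.05. PSMB8 and PSMB9 are left out where a group was at the floor; on the left PSMB10, PSME1 and PSME2 are filled and far right of 0, and on the right PSME1 in D vs C is the only filled symbol.

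Within a library, the inducible member was next set against its counterpart in counts per kilobase, a ratio that does not depend on the scaling between libraries. With the union of annotated exons as length, PSMB8 made up 36.0% ± 8.02 of its pair with PSMB5 in I and 24.0% ± 5.63 in DI (SD, n = 3). PSMB9 made up 49.3% ± 5.56 of its pair with PSMB6 in I and 37.7% ± 4.04 in DI. PSMB10 stayed the minor partner of PSMB7, at 16.5% ± 1.399 in I and 15.7% ± 1.58 in DI. Without IFNγ the PSMB10 share was 0.338% ± 0.109 in C and 0.199% ± 0.120 in D, and a share of PSMB8 or PSMB9 at the floor would be at most 0.0714% and 0.0608% in any C or D library.

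The shares of the cap subunits began higher. PSME1 made up 47.3% ± 3.08 of its pair with PSME3 in C and 86.7% ± 2.85 in I, and with doxycycline 30.5% ± 9.81 in D and 79.3% ± 4.78 in DI. PSME2 made up 20.1% ± 0.956 in C and 62.3% ± 4.72 in I, and with doxycycline 18.4% ± 5.29 in D and 57.2% ± 4.58 in DI. These shares depend on the length used, because the union of exons of PSMB8, PSMB9, PSME2 and PSME3 is far longer than their principal transcript. With the length of the principal transcript, an alternative chosen after seeing the data, the shares in I were 52.0% ± 8.43 for PSMB8, 69.1% ± 4.64 for PSMB9, 14.2% ± 1.23 for PSMB10, 69.3% ± 5.34 for PSME1 and 45.0% ± 5.05 for PSME2. PSME1 then made up 23.6% ± 2.27 of its pair in C. The change of the log2 ratio between groups is the same with either length.

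**Figure D3:**
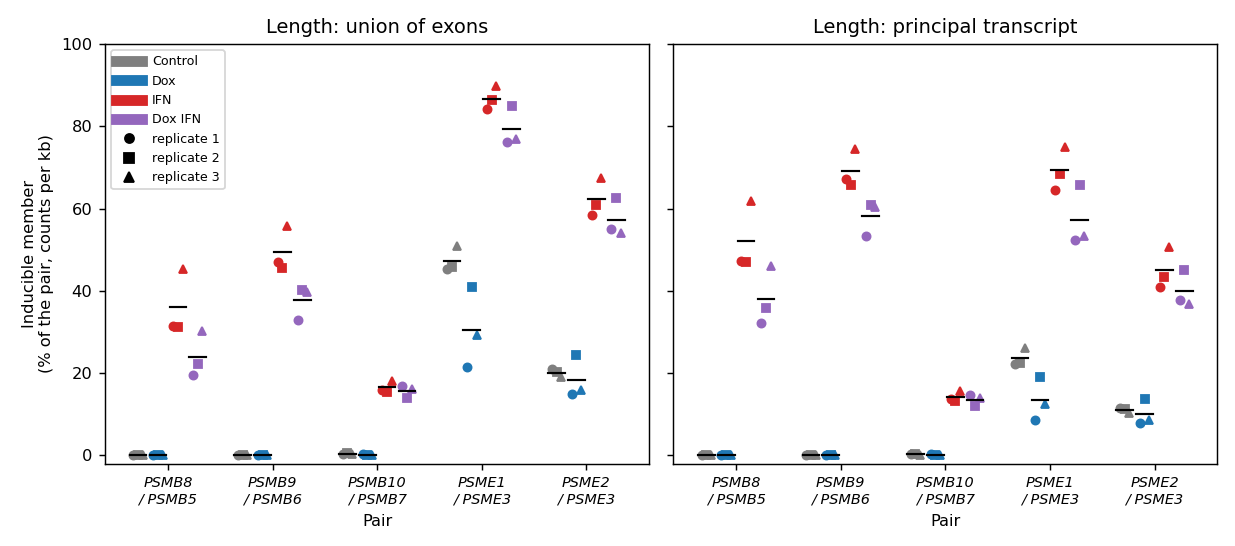
Inducible member as a percent of its pair with the constitutive counterpart, in counts per kilobase, for each library (1 marker shape per replicate number) with the mean of each group as a black line. The left panel uses the union of exons and the right panel the principal transcript as length; in both, PSMB8 and PSMB9 leave the zero line only with IFNγ and sit lower in Dox IFN than in IFN, and PSMB10 stays under 20%.

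The rest of the proteasome was followed through lists of the other 20S subunits, the 19S regulatory particle and assembly factors with other regulators. Of 46 tested genes of these lists, 1 rose in I against C and 1 in DI against D, and none fell. Each count is near the share of all genes tested that were called higher (2.1% and 1.67%). Both calls were PSMA6, an alpha ring subunit, which went from 2.82 ± 0.612 CPM in C to 6.54 ± 0.443 in I (SD, n = 3, log2 fold change 1.21, SE 0.21, adjusted p = 0.00803) and from 2.97 ± 0.167 in D to 6.70 ± 0.447 in DI (1.17, SE 0.21, adjusted p = 0.0123). The second call was lost with no filter on low counts, with only the libraries of D and DI in the model, and without Dox replicate 1, Dox replicate 3 or Dox IFN replicate 1. PSMA6 had the lowest level of the 11 tested 20S subunits. It was at 0.433 CPM per kilobase of exon in C, where the others ran from 2.08 to 249. Whether some of its reads were lost or assigned to other genes in the counting was not tested. With the replicate block, 4 rose in each comparison, against 4.88% and 3.77% of all genes tested. With DESeq2 it was 3 in each, against 2.72% and 2.16% of all genes it tested. The 4 were the alpha ring subunits PSMA3, PSMA4, PSMA5 and PSMA6. PSMA3 was 1.76-fold and 1.74-fold higher with IFNγ (without and with doxycycline, adjusted p = 0.00219 and 0.00369 with the block), PSMA4 1.48-fold and 1.59-fold (0.00566 and 0.00336) and PSMA5 1.59-fold and 1.46-fold (0.000776 and 0.00383). The median log2 fold change in I against C was 0.33 over the 11 tested 20S subunits, -0.03 over the 19 of the 19S particle and 0.01 over the 16 assembly factors and regulators, beside -0.01 over all genes tested, and no 19S gene was called under any of these tests.

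Of 6 genes on the route from IFNγ to these promoters, IRF1, NLRC5, JAK2, IFNGR1, IFNGR2 and JAK1, 3 rose in both comparisons. IRF1, the factor that binds ISRE sites, went from 2.14 ± 0.288 CPM in C to 411 ± 31.0 in I and from 2.34 ± 0.505 in D to 367 ± 21.9 in DI (SD, n = 3, log2 fold changes 7.58 and 7.29, adjusted p = 2.75e-09 and 3.47e-09). NLRC5, the transactivator of MHC class I genes, went from 0.0615 ± 0.106 CPM in C, under the floor, to 364 ± 62.4 in I (SD, n = 3). JAK2, the receptor kinase, rose with log2 fold changes of 2.89 and 2.23. IFNGR1, IFNGR2 and JAK1 were not called in either comparison, although IFNGR2 was with the replicate block in I against C (log2 fold change 0.29, adjusted p = 0.0429).

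To ask what doxycycline did without IFNγ, D was compared with C. PSME1 was the only member called, lower in D as 116 of the genes tested were (0.733%), with 54.8, 63.8 and 70.1 CPM in C against 24.3, 42.9 and 33.8 in D. The groups did not overlap, and the level fell by 0.90 on the log2 scale (SE 0.18, adjusted p = 0.0459, and 0.00197 with the replicate block). That call was near the threshold, since it was kept in 1 of 12 fits that each left out a library (the one without Dox replicate 2) with adjusted p-values of 0.0367 to 0.192. With library size alone the log2 fold change was -0.81 (adjusted p = 0.0607), and with only the libraries of C and D it was -0.90 (adjusted p = 0.201). DESeq2 called PSME1 with an adjusted p of 0.000657 (-0.91). CD74 was at 11.2 ± 1.41 CPM in C and 5.28 ± 2.13 in D (SD, n = 3, adjusted p = 0.186, 0.0304 with the block and 0.0436 by DESeq2), and its part in the result was not tested.

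PSMB5 was at 184, 189 and 174 CPM in C and at 155, 153 and 143 in D, again without overlap. The difference was small and even, at -0.25, -0.31 and -0.28 on the log2 scale in the same-numbered pairs (fitted log2 fold change -0.28, SE 0.10, adjusted p = 0.226). With the replicate block it was called (adjusted p = 0.0342), which makes 2 of the 9 members, both lower, against 7.67% of all genes tested. PSME1 and PSMB5 were also the only members whose D libraries were all below those of C, as were 9.1% of all genes tested. PSME2 (log2 fold change -0.04, SE 0.13), PSMB6 (-0.03, SE 0.14), PSMB7 (-0.12, SE 0.10) and PSME3 (0.15, SE 0.19) overlapped between C and D, and PSMB10 did so at under 1 CPM (-0.87, SE 0.41, adjusted p = 0.374). PSMB8 and PSMB9 were at or under the floor in both groups and give no fold. Of the 46 other proteasome genes tested, none was called, with 2 at an unadjusted p under 0.05, 1 called by DESeq2 and 3 with the block. Over all genes tested, 1.23% were called in either direction, 4.75% by DESeq2 and 13.9% with the block.

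The comparison of DI with I asks what doxycycline did under IFNγ. The log2 fold changes of the inducible members ran from -0.96 to -0.04. PSMB8 was at 138, 125 and 215 CPM in I and at 70.2, 66.0 and 110.2 in DI, 0.516 times the level in I by the fit. Replicate 3 was the highest library in both groups, and the same-numbered differences were nearly equal, at -0.98, -0.92 and -0.96 on the log2 scale. PSMB9 was at 268, 246 and 413 CPM in I and at 176, 178 and 236 in DI, with same-numbered differences of -0.61, -0.47 and -0.81. PSME1 was at 375, 413 and 485 CPM in I and at 247, 273 and 258 in DI, with differences of -0.60, -0.60 and -0.91. For each of the 3 genes every DI library was below every I library.

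Whether these differences passed the test depended on the model and the tool. In the model of 4 groups alone no member was called, while 0.569% of all genes tested were called lower. Of the 9 members 3 had an unadjusted p under 0.05, with a log2 fold change of -0.96 for PSMB8 (SE 0.30, adjusted p = 0.232), -0.65 for PSMB9 (SE 0.25, adjusted p = 0.340) and -0.71 for PSME1 (SE 0.18, adjusted p = 0.127). With the replicate number as a block these 3 members were called lower, against 6.62% of all genes tested (adjusted p = 0.00332, 0.0191 and 0.00732). DESeq2 without the block called PSMB8 and PSME1 (adjusted p = 0.0459 and 0.0172) and not PSMB9 (0.156), against 1.97% of all genes it tested. A single-gene exact permutation test of 3 libraries against 3 gave p = 0.1 for each, the smallest it can give (two-sided).

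**Figure D4:**
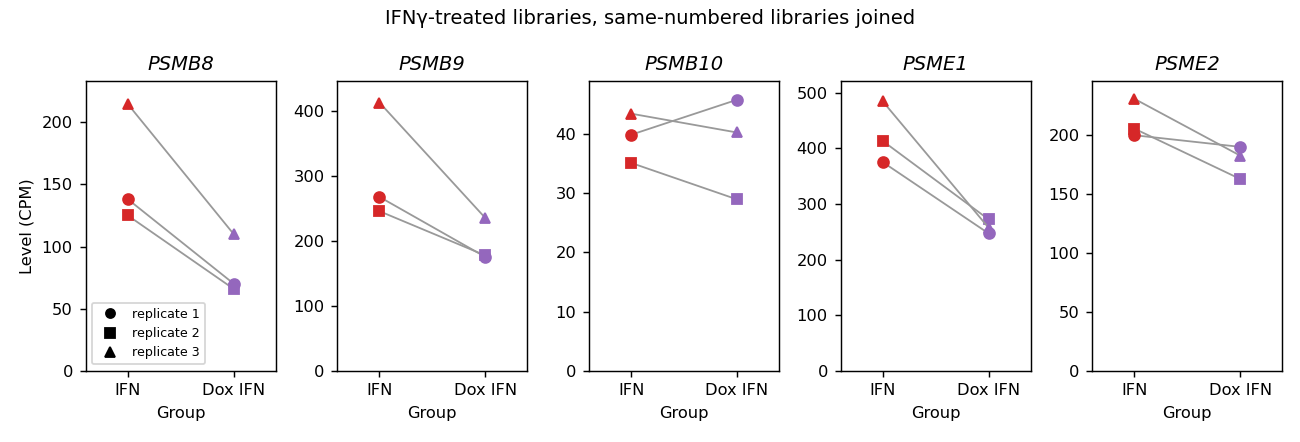
Levels in CPM of the 5 inducible members in the IFN and Dox IFN libraries, with grey lines joining libraries of the same replicate number; each panel has its own axis from 0. All 3 lines go down for PSMB8, PSMB9, PSME1 and PSME2, while for PSMB10 the line of replicate 1 goes up. For PSMB8 the drops are alike on the log2 scale, but in CPM that of replicate 3 is the largest.

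PSMB10 and PSME2 had the smallest log2 fold changes of the inducible members. PSMB10 was at 39.9, 35.1 and 43.4 CPM in I and at 45.8, 28.97 and 40.3 in DI, with overlap, and its same-numbered differences took both signs (log2 fold change -0.04, SE 0.27, adjusted p = 0.980). PSME2 was at 199.997, 206 and 231 CPM in I and at 190.1, 163 and 183 in DI, a gap without overlap whose size was -0.25 on the log2 scale (SE 0.12, adjusted p = 0.469, and 0.197 with the block). With it, 4 of the 9 members had all DI libraries below all I libraries, as did 8.41% of all genes tested. The differences between these genes and PSMB8, PSMB9 or PSME1 were not tested. The counterparts had log2 fold changes of -0.11 for PSMB5, 0.08 for PSMB6, 0.03 for PSMB7 and 0.08 for PSME3, all with overlap.

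Set against the counterpart in the same library, PSMB8 and PSMB9 were lower in DI without overlap, and PSME1 was not. The log2 ratio of PSMB8 to PSMB5 was -0.85 ± 0.49 in I and -1.69 ± 0.44 in DI, and that of PSMB9 to PSMB6 -0.04 ± 0.32 and -0.73 ± 0.25 (SD, n = 3), in both cases without overlap. That of PSMB10 to PSMB7 was -2.34 ± 0.14 in I and -2.43 ± 0.18 in DI, with overlap. That of PSME1 to PSME3 was 2.73 ± 0.37 and 1.97 ± 0.45 and that of PSME2 to PSME3 0.73 ± 0.29 and 0.42 ± 0.27, and both of these overlapped. PSME3 itself varied from 160 to 205 CPM within I and from 141 to 223 within DI, and its part in the overlap was not tested. In same-numbered libraries the PSME1 ratio was lower in DI in each pair. The PSME2 ratio was higher in DI for replicate 2 (0.64 in I and 0.73 in DI) and lower for the others.

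None of the same 6 genes of the route from IFNγ was called in DI against I. IRF1 had 411 ± 31.0 CPM in I and 367 ± 21.9 in DI (log2 fold change -0.16, SE 0.13, adjusted p = 0.694) and NLRC5 364 ± 62.4 and 357 ± 16.6 (SD, n = 3, -0.03, SE 0.30, adjusted p = 0.989), both with overlap. JAK2 had 31.0 ± 8.66 CPM in I and 19.8 ± 4.35 in DI, with overlap but lower in each same-numbered pair (-0.65, SE 0.25, adjusted p = 0.325, and 0.0931 with the block). Of the 6 genes 2, JAK2 and IFNGR2, had an unadjusted p under 0.05, and neither DESeq2 nor the block called any. CD74 stood at 53.9 ± 7.62 CPM in I and 31.3 ± 13.3 in DI without overlap (log2 fold change -0.79, SE 0.33, adjusted p = 0.372), so that the summed blood cell markers were lower in every DI library as PSMB8, PSMB9 and PSME1 were, and their part in the result was not tested. CD3E, a defining T cell gene, was at 0 in both groups.

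Whether doxycycline changed the size of the IFNγ response was tested as the difference of DI against D and I against C. No gene of the 15828 was called by edgeR (0%), with 99 at an unadjusted p under 0.05, none with the replicate block and 1 by DESeq2, and no member was among them. Those 99 are far below a share of 0.05 of the genes, so the edgeR test without the block was conservative here. A missing call therefore does not show that the responses were equal. For PSME1 the 2 responses were 2.75 and 2.94 on the log2 scale (difference 0.19, SE 0.26), and the doxycycline differences were -0.90 without and -0.71 with IFNγ. For PSME2 the responses were 2.59 and 2.38 (difference -0.20, SE 0.18) and for PSMB10 5.81 and 6.64 (0.83, SE 0.49). For PSMB8 and PSMB9 this difference cannot be read, because both groups without IFNγ were at the floor.

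Across the 12 libraries, the genes whose log2 CPM ran most like that of a member were other interferon-induced genes for the inducible members. By Pearson r, given as a description of libraries that share a treatment, they were IFIH1, GBP1 and PSMB8-AS1 for PSMB8 (0.998 to 0.999), GBP1, PSMB8-AS1 and IFIH1 for PSMB9 (0.998 to 0.999), GBP4, B2M and GBP1 for PSMB10 (0.989 to 0.994) and PSMB8-AS1, B2M and PARP14 for PSME2 (0.995 to 0.996). For PSME1 they were PLEKHF1, SAMD9L and OPTN (0.989 to 0.990). Those of the counterparts were ILF2, ATG4C and CDC45 for PSMB5 (0.898 to 0.947), SNRNP40, RAB1B and STIP1 for PSMB6 (0.957 to 0.963), WTAP, TMEM199 and FAM118B for PSMB7 (0.867 to 0.894) and NIPA2, FAM86C1P and DNAJB12 for PSME3 (0.953 to 0.957). Among the members PSMB8 and PSMB9 ran together most closely (0.999), and PSMB8 had -0.21, -0.19 and 0.29 with PSMB5, PSMB6 and PSMB7.

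Some members share bases with other genes, and the strand setting of the authors' counting is not given in the sources used here, so reads there may have been split or lost. The exons of PSMB8 overlap those of PSMB8-AS1 by 618 bases and those of PSMB9 by 139 on the opposite strand, and PSMB9 shares 174 exonic bases with PSMB8-AS1. PSMB8-AS1 was at 0 in all C and D libraries and at 16.1 ± 1.95 CPM in I and 11.4 ± 1.31 in DI (SD, n = 3), without overlap in DI against I (log2 fold change -0.50, SE 0.20, adjusted p = 0.401). TAP1 and TAP2, the peptide transporter genes beside PSMB8 and PSMB9, rose with them, to 1330 ± 118 and 106 ± 3.86 CPM in I and to 930 ± 31.2 and 80.3 ± 3.54 in DI. PSME2 overlaps RNF31 by 216 exonic bases on the opposite strand, and RNF31 had 17.99 ± 1.22 CPM in C and 35.0 ± 6.41 in I (SD, n = 3, log2 fold change 0.96, SE 0.19, adjusted p = 0.0176). With doxycycline RNF31 had 19.4 ± 3.86 CPM in D and 32.7 ± 5.31 in DI, a comparison for which no test is given here. PSME3 overlaps BECN1 by 300 exonic bases, and BECN1 was not called in any comparison. PSMB10 shares 644 of its 1853 exonic bases with AC040162.1 on the same strand, a gene that is not in the count table. PSMB7 and PSME2 also have processed pseudogenes in the table (PSMB7P1 and 6 named for PSME2), to which their reads could have been assigned.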

How the data were processed

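RNA-sequencing (paired-end, 150 bases) of 12 libraries in 4 groups gave the values. The authors deposited raw counts per gene, whole numbers for 43769 gene identifiers, and the aligner, the counting tool, its strand setting and the genome build are not given in the sources used here. DESeq2 is named in the submitters' processing notes without a version. The authors also deposited tables of their own comparisons (fold changes, p-values and adjusted p-values), which were not used, nor were 18 per-library columns in them whose names the labels do not explain. All gene identifiers were found in GENCODE 29 (GRCh38), which gave positions and lengths. Groups came from the sample labels.

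Counts were scaled by TMM, filtered with filterByExpr (minimum count 10) and tested in one model of the 4 groups by edgeR's two-sided quasi-likelihood test (edgeR 4.0.16, limma 3.58.1, R 4.3.3), with Benjamini-Hochberg adjustment over all 15828 genes tested and a threshold of 0.05. CPM divide counts by the scaled library size. Ratios within pairs used 0.5 added counts per gene. Python 3.11.15 (pandas 2.3.3, scipy 1.17.1) did the rest, and DESeq2 1.42.0 was an alternative test. The other alternatives changed the scaling, filter, block, libraries in the model, threshold and pseudocount, or omitted 1 library at a time. The code was tested on counts simulated with known changes.

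Replicate numbers are shared between groups. The deviations from the group means correlated over genes between same-numbered libraries (r from 0.338 to 0.804 in each pair of groups) and less between the rest (r from -0.628 to 0.143), so the numbers pair the libraries. The pairing comes from the data and not from the labels, the model has no block, and values with the replicate block are given where they change a call.

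Genes named were the target of the hairpin, the 9 members, list genes that were called and whose log2 fold change was 0.5 or more in size (at most 5 per list and comparison), and the 3 genes most like each member. PSMA3, PSMA4 and PSMA5, the overlapping genes, CD74, COL1A2, the other markers named and the uncalled genes of the route were named after their values were seen. Members and lists were chosen with earlier results of these data known. Some genes of the marker and route lists are not reported here, and the counts and sums given leave them out.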

Additional observations from a re-analysis of the deposited data

How the results depend on the processing

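The rise of the 5 inducible members with IFNγ, in I against C and in DI against D, kept its direction and its call under every alternative run, and no alternative called a counterpart in either. The count of other proteasome genes called in I against C went from 1 to 3 with DESeq2, 4 with the replicate block and 9 with the replicate block within each doxycycline arm, and ran from 1 to 2 when libraries were left out. In DI against D it went from 1 to 3 with DESeq2, 4 with the replicate block, 8 with the replicate block within each arm and 0 with no filter, with only the 2 groups compared or at an adjusted p under 0.01, and ran from 0 to 3 when libraries were left out. In D against C it went from 0 to 1 with DESeq2 and 3 with the replicate block. The share of all genes called was not counted for the fit within each arm, so the 9 and 8 cannot be set against it.

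The members called in DI against I went from 0 to 2 with DESeq2 and 3 with the replicate block. In D against C they went from 1 to 2 with the replicate block and to 0 with library size alone, only the 2 groups compared or an adjusted p under 0.01, and ran from 0 to 1 when libraries were left out. The block changed no other call of a member. The cause was not tested.

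Sign changes were seen only for members without a call, near 0. With library size alone, under which the median log2 fold change of all genes was 0.085 in DI against I and in D against C (-0.0068 and -0.0012 with TMM), they were -0.019 for PSMB5 and -0.037 for PSMB6 in DI against D, 0.049 for PSMB10 in DI against I, and 0.053 for PSMB6 and 0.044 for PSME2 in D against C. With the replicate block PSMB6 in DI against D was -0.0037, and -0.0051 within each arm. When libraries were left out, the log2 fold change of PSMB7 ran from -0.058 to 0.011 in I against C. In DI against D it ran from -0.071 to 0.093 for PSMB5 and from -0.097 to 0.13 for PSMB6. In DI against I it ran from -0.19 to 0.12 for PSMB10, -0.045 to 0.11 for PSMB7 and -0.026 to 0.27 for PSME3. In D against C it ran from -0.11 to 0.063 for PSMB6 and -0.18 to 0.024 for PSME2, and in the interaction from -0.21 to 0.12 for PSME3. The 14 differences between groups in the log2 ratio of a pair stayed within 1 SD in all 98 alternatives and kept their sign in 97, the exception being PSMB10 over PSMB7 in DI against I (-0.088, and 0.011 without Dox IFN replicate 2). The ratios themselves depend on the length used.

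Depth limits PSMB8 and PSMB9 without IFNγ, where they were at the floor, and PSMB10 in D, which rests on 22 counts. A member without a call is not shown to be equal between groups.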
